A study of Mus musculus with 2 samples.

Results

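The genes described here belong to the enzyme families that add or remove acetyl and methyl groups on histones and methyl groups on DNA. These are histone deacetylases, sirtuins, lysine acetyltransferases, lysine and arginine methyltransferases, lysine demethylases, DNA methyltransferases and TET dioxygenases. They were chosen by gene symbol, with earlier results of these data known. The rule took the family prefixes Hdac, Sirt, Kat, Kmt, Setd, Prmt, Kdm and Dnmt followed by a number. It also took the Tet, Ezh and Ehmt genes, Eed, Suz12, Ep300 and Crebbp, and left out the Y-linked Kdm5d. The choice found 80 of the 18650 genes listed in either library. One of them, Dnmt3aos, is a non-coding transcript antisense to Dnmt3a that shares the symbol prefix. The other 79 carry the names of these enzyme families or of core subunits, and some of them, such as Setd3, act on other substrates.

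The study compared 1 RNA sequencing library of control cells, labelled wild type, with 1 library of Seh1cKO cells, labelled mutant and read here, from the name, as a conditional knockout of Seh1l, which encodes the nuclear pore and GATOR protein Seh1. Both came from C57BL/6 mice: precursors were immunopanned from the cortex at postnatal days 4 to 7 on anti-GalC and then anti-O4 plates, expanded with PDGF-AA, CNTF, bFGF and NT3, and then given 60 nM triiodothyronine (T3) while PDGF-AA, bFGF and NT3 were removed. The series describes the cells as immature oligodendrocytes on day 2 of T3. The Cre driver, the deleted exons and the number and sex of the mice are not given in the labels used here. The libraries held 20730066 and 20599535 assigned reads, and with 1 library per genotype every difference below is one between 2 libraries, not a tested effect of genotype. Levels are given as CPM (reads per 1000000 assigned reads of the library), or as the deposited FPKM (scaled also by transcript length) where genes are compared with each other. Intervals in parentheses are exact 95% intervals of the CPM ratio and cover counting error only.

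Several library-wide differences ran alongside the genotype. Seh1l itself stood at 32.1 CPM in control against 18.5 CPM in Seh1cKO. The lineage genes Olig1, Olig2, Sox10, Pdgfra and Cspg4 were all present, at a summed 2041 and 2153 CPM. Within that sum Sox10, a factor of the whole lineage, was 2.05-fold lower (1.98 to 2.13), while Olig2 was 1.31-fold higher (1.27 to 1.34) and the precursor markers Pdgfra and Cspg4 stood at 156 and 277 CPM and at 98.8 and 148 CPM. Of the maturation list, 6 of 6 markers (Mbp, Mag, Mog, Cnp, Myrf and Enpp6) were at least 2-fold lower in Seh1cKO. Of all measured genes, 1.29% were. The summed level of the 6 markers was 2006 CPM in control against 467 CPM in Seh1cKO. All 10 cell cycle genes listed were higher, beside 60.8% of all genes, from a summed 645 to 1024 CPM. Of other cell types, 7 astrocyte markers summed to 8747 and 5270 CPM. At least 20% lower were 3 of them, and 1 was at least 25% higher, beside 8.83% and 21.3% of all genes. The 8 fibroblast and mural markers summed to 201 and 609 CPM, all 8 of them higher, where 60.8% of all genes were. The 6 epithelial markers summed to 10.6 and 195 CPM, 5 of them higher, and the 6 neuron markers to 414 and 436 CPM. Of the 5 endothelial and 6 microglial markers, 3 and 4 had a mean of at least 1 CPM. Those 3 summed to 7.67 and 20.9 CPM, and those 4 to 6.71 and 15.3 CPM. Cdh5 was at 1.01 and 13.8 CPM, Kdr at 5.35 and 4.95 CPM and Pecam1 at 1.30 and 2.18 CPM. Cldn5, an endothelial tight junction gene, was at 0 in control. Xist and the Y-linked genes stood on opposite sides, as given with the X-linked enzymes. In bulk RNA, fewer cells of one type and less RNA per cell cannot be told apart.

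Acetyl groups on histone tails are placed by acetyltransferases and taken off by the zinc-dependent HDACs and the NAD-dependent sirtuins. Methyl groups on histone lysines carry different meanings by position: lysine 4 of histone H3 marks promoters and enhancers, lysine 27 is the mark of Polycomb repression, and lysine 9 that of heterochromatin. In the oligodendrocyte lineage of the mouse, HDAC1 and HDAC2 are needed for precursors to differentiate, EZH2 is active in precursors, and SIRT2 is a cytoplasmic deacetylase known from oligodendrocytes and myelin.

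Most of these genes stood near equality. Of the 80, 77 had a mean of at least 1 CPM and were measured; the others were Dnmt3aos with 1 read in control and 0 in Seh1cKO, Dnmt3l with 2 and 6 reads, and Kdm4d with 13 and 24 reads. On the log2(CPM + 1) scale, 67 of the 77 (87.0%) were less than 25% higher and less than 20% lower in Seh1cKO, equal distances on a log scale, against 69.9% of all 13757 measured genes. Sirt2 was the 1 gene at least 2-fold lower, where 1.29% of all genes were, and 0 were at least 2-fold higher, where 2.86% of all genes were. At least 25% higher were 8 members (10.4%), against 21.3% of all genes: Kdm6a, Kdm5c, Dnmt1, Kat6b, Setd4, Kmt2d, Hdac4 and Prmt8. At least 20% lower were 2 members (2.60%), Sirt2 and Sirt7, against 8.83%. After rescaling by the median of ratios, those shares of all genes were 17.2% and 12.1%, and 4 members were at least 25% higher: Kdm5c, Setd4, Kmt2d and Hdac4 no longer passed that limit. The median log2 ratio of the members was 0.08, beside 0.07 for all genes, and 49 of 77 (63.6%) were above 0, beside 60.8% of all genes. The counting interval left out a ratio of 1 for 45 of 77 members (58.4%), beside 55.5% of all measured genes. An interval apart from 1 therefore does not single a gene out. These shares of all genes are also those to set beside the counts of each class below. Rescaling by the median of ratios brought the members' median to 0.01 and that of all genes to -0.005.

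**Figure D1:**
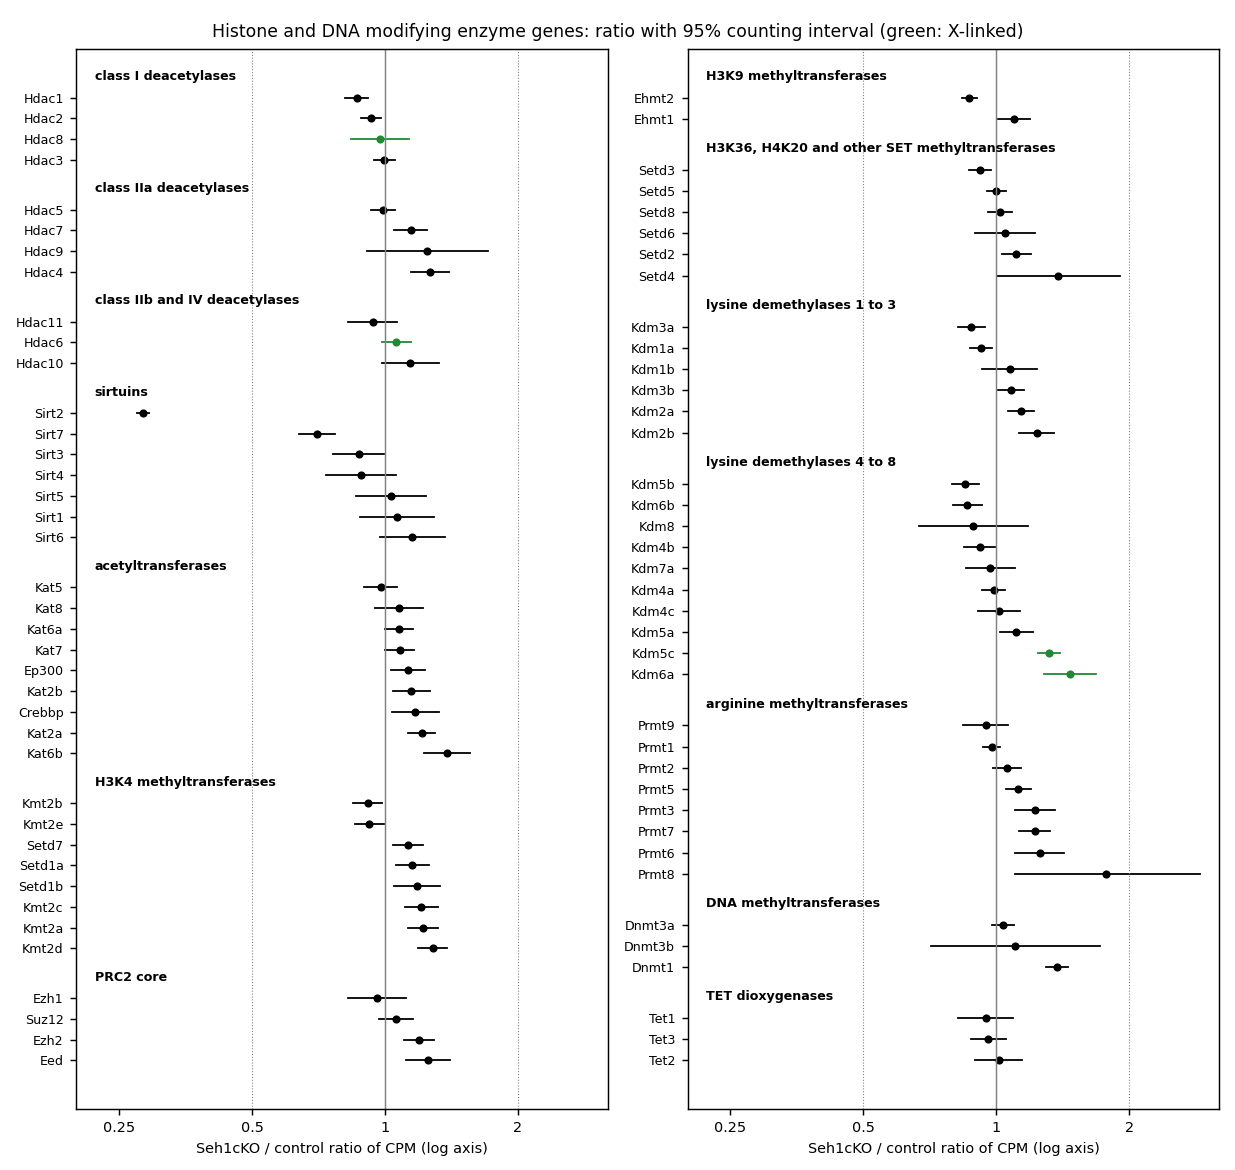
Ratio of CPM in Seh1cKO to CPM in control (log axis) for the 77 measured genes, grouped by enzyme class, with points for the ratio, bars for the exact 95% counting interval and green for the X-linked genes. Sirt2 lies alone at a ratio of 0.283, and the next lowest is Sirt7 at 0.700.

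The promoter sequences of the 2 genes that frame this range, the most negative and the most positive log2 ratio among members with a mean of 5 CPM or more, and of Dnmt1, second on the positive side, are shown to place these values on the genome. Each is the RefSeq window of GRCm38.p6 from 250 bases before to 50 bases after a transcript start in the table, read 5′ to 3′ on the gene's strand. Capitals mark each match to CANNTG, the E-box that basic helix-loop-helix factors such as Olig2, named in the series title, bind. The Sirt2 window is chr7:28766502-28766801 on the plus strand, the Kdm6a window chrX:18162325-18162624 on the plus strand, and the Dnmt1 window chr9:20959839-20960138 on the minus strand. The Kdm6a window lies inside the RefSeq gene span, which begins upstream of it at 18160862, so another start of that gene was used. The Dnmt1 window lies at the outer end of its gene span, at 20959888, and 5 transcripts are listed for Dnmt1. Only 1 window per gene was read. Which start these cells use was not tested, so the counts below hold for the printed windows and not for every promoter of a gene.
Sirt2: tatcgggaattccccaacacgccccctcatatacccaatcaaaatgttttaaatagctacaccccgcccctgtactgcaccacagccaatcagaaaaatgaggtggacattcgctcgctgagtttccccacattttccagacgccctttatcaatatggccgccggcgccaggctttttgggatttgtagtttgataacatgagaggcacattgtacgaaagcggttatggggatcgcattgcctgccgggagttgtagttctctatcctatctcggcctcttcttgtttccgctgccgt
Kdm6a: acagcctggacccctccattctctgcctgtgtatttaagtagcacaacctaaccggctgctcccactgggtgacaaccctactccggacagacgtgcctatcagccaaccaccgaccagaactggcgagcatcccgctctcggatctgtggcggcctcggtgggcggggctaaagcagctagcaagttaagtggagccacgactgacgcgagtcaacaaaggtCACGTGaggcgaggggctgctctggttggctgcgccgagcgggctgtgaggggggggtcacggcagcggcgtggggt
Dnmt1: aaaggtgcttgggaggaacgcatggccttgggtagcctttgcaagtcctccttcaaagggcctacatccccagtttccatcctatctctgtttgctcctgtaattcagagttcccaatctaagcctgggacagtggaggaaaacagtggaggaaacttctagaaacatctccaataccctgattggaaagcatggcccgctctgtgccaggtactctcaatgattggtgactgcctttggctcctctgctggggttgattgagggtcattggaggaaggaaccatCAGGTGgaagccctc
The Sirt2 window held 0 E-box matches, and the Kdm6a and Dnmt1 windows 1 each. A match was found in 72.1% of the 27025 promoter windows of the same length and in 38 of the 65 windows that matched measured members. The palindromic letters read alike on both strands. ACAAAG, a core bound by SOX factors, was searched on both strands; it occurred once, in the Kdm6a window, and in 18.7% of all windows. The letters TTTCCCGC and TTTGGCGC, bound by E2F factors of the cell cycle, were in none of the 3 windows on either strand, and in 1.11% and 0.537% of all windows. CpG dinucleotides, the substrate of the DNA methyltransferases, numbered 16 in the Sirt2 window, 21 in the Kdm6a window and 2 in the Dnmt1 window, beside a median of 22 over the members' windows and 7 over all windows. The window of Sirt7, second on the negative side, is not printed. It held 0 matches to CANNTG, to ACAAAG and to both E2F strings, and 17 CpG dinucleotides. A match is a string of letters and not a measured site.

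Sirt2 differed most among the 77. It encodes an NAD-dependent deacetylase that acts on tubulin as well as on histone H4, and lies on chromosome 7 (RefSeq gene span 28766752 to 28788665 in GRCm38.p6). Its level was 834 CPM in control against 236 CPM in Seh1cKO, from 17298 and 4864 reads. That is 3.53-fold lower in Seh1cKO (3.42 to 3.65), a log2 ratio of -1.82. Per length it was the most abundant of all 80 genes in control, at 472 FPKM, and the second in Seh1cKO, at 132 FPKM, after Prmt1. In control, Sirt2 supplied 57.7% of the summed FPKM of the 18 HDAC and sirtuin genes, and in Seh1cKO 28.8%. Without it, that sum was 347 FPKM in control and 326 FPKM in Seh1cKO.

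The log2 ratio of Sirt2 ranged from -1.89 with the median of ratios to -1.80 with a pseudocount of 5 CPM. It is the 1 member that the authors' deposited table of 896 genes lists, at a log2 fold change of -1.84. The maturation markers that were lower in the same library ran from Cnp, a myelin phosphodiesterase, at 1037 and 347 CPM and 2.99-fold lower (2.91 to 3.07), to Mag, a myelin adhesion protein, at 144 and 8.74 CPM and 16.5-fold lower (14.2 to 19.2). The Sirt2 fold lies between that of Cnp and that of Myrf, the activator of myelin genes, at 188 and 45.9 CPM and 4.09-fold lower (3.80 to 4.39). The part of these cells' maturation state in the Sirt2 value was not tested. The non-coding gene Gm19897 overlaps the Sirt2 locus, and its 0.868 and 0.388 CPM were far below those of Sirt2. The deposited Sirt2 count is not a whole number in at least 1 library.

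The other 6 sirtuins were low to moderate and differed less. Sirt7, a nucleolar and chromatin-bound deacetylase (chromosome 11), stood at 52.6 CPM in control against 36.8 CPM in Seh1cKO, or 1.43-fold lower (1.30 to 1.57). It was the second-lowest ratio among the measured enzymes. The mitochondrial members followed. Sirt3 was at 23.3 and 20.3 CPM, for a ratio of 0.873 (0.764 to 0.997), Sirt4 at 12.6 and 11.2 CPM, and Sirt5 at 11.5 and 11.9 CPM. The nuclear sirtuins Sirt1, a deacetylase of histones and transcription factors, at 9.99 and 10.6 CPM, and Sirt6, a deacetylase of histone H3, at 12.9 and 14.9 CPM, had intervals that held equality. The median log2 ratio of the 7 sirtuins was -0.16, and 2 of them were at least 20% lower, beside 8.83% of all genes.

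**Figure D2:**
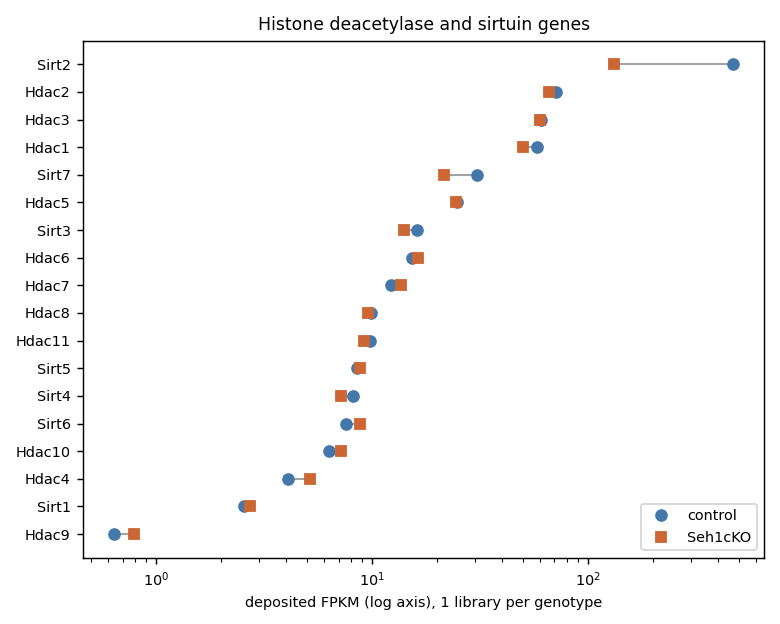
Deposited FPKM (log axis) of the 18 HDAC and sirtuin genes in the control library (circles) and the Seh1cKO library (squares), ordered by the control level. Sirt2 moves from 472 to 132 FPKM, Sirt7 from 30.7 to 21.5 FPKM, and the other pairs lie close together.

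The class I HDACs, the catalytic subunits of the nuclear corepressor complexes, included the next most abundant deacetylases per length (Hdac2, Hdac3 and Hdac1), and all 4 lay at or slightly below equality. Hdac2 was at 143 CPM in control against 132 CPM in Seh1cKO, a ratio of 0.929 (0.882 to 0.979). Its paralog Hdac1 was at 115 and 99.1 CPM, for a ratio of 0.863 (0.813 to 0.916). Hdac3, the enzyme of the NCoR and SMRT complexes, was at 121 and 121 CPM, and Hdac8, which also acts on cohesin and is X-linked, at 17.1 and 16.6 CPM. The class median was -0.07, and 0 of 4 were 20% lower or 25% higher. Hdac1 and Hdac2, required for differentiation of the lineage, thus had ratios far nearer to 1 than that of Sirt2.

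Class IIa HDACs, which shuttle between cytoplasm and nucleus and bind MEF2 factors, were mostly above equality. Hdac4 was at 33.6 CPM in control against 42.5 CPM in Seh1cKO, or 1.27-fold higher (1.14 to 1.40), the 1 member of the 4 at least 25% higher. Hdac7 was at 48.5 and 55.4 CPM and the scarce Hdac9 at 3.67 and 4.56 CPM. Hdac5 was level at 95.5 and 94.7 CPM. Of the remaining HDACs, the tubulin deacetylase Hdac6 was at 63.2 and 67.0 CPM, the polyamine deacetylase Hdac10 at 16.4 and 18.8 CPM, and Hdac11, the single class IV enzyme, at 24.6 and 23.0 CPM, all with intervals that held equality.

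Acetyltransferases lay above equality in 8 of 9 cases, by small amounts, beside 60.8% of all genes. Their median log2 ratio was 0.17, and 0.09 after rescaling by the median of ratios. Kat6b, a MYST-family enzyme also called MORF, was at 23.0 CPM in control against 31.7 CPM in Seh1cKO, or 1.38-fold higher (1.22 to 1.55), the 1 member at least 25% higher. Its paralog Kat6a was at 66.2 and 71.3 CPM, for a ratio of 1.08 (1.00 to 1.16). The intervals of the pair, which cover counting error only, did not overlap, while those of Kat2a and Kat2b did. The SAGA enzyme Kat2a was at 67.1 and 81.3 CPM, or 1.21-fold higher (1.13 to 1.30), and its paralog Kat2b at 39.7 and 45.5 CPM. The coactivators Ep300, at 45.2 and 50.9 CPM, and Crebbp, at 23.7 and 27.8 CPM, had ratios of 1.13 and 1.17. Kat7 was at 67.7 and 73.0 CPM, Kat8, which acetylates histone H4, at 24.1 and 25.9 CPM, and Kat5, the enzyme of the TIP60 complex, at 53.4 and 52.1 CPM, the 1 below equality.

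The genes grouped here as writers of methylation at lysine 4 of histone H3 divided. The grouping is a list of genes, and the activity of each one, Kmt2e included, on this lysine was not measured. Kmt2d, an enhancer methyltransferase, was at 61.0 CPM in control against 78.2 CPM in Seh1cKO, or 1.28-fold higher (1.19 to 1.38). Kmt2a was 1.22-fold higher (1.13 to 1.32), at 54.9 and 67.0 CPM, and Kmt2c 1.21-fold higher (1.11 to 1.32), at 45.2 and 54.6 CPM. Kmt2b, at 73.8 and 67.3 CPM, and Kmt2e, at 68.1 and 62.8 CPM, were below equality, with ratios of 0.913 (0.848 to 0.982) and 0.922 (0.854 to 0.995). The SET1 enzymes Setd1a and Setd1b were at 48.9 and 56.4 CPM and at 23.9 and 28.3 CPM, and the monomethyltransferase Setd7 at 57.8 and 65.2 CPM. The class median was 0.22, with 6 of 8 above equality, beside 60.8% of all genes. At least 25% higher was 1 of the 8, beside 21.3% of all genes.

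These transcripts are among the longest of the set, and length went with the ratio in the transcriptome as well. Splitting at a deposited length of 7000 bases, a value chosen after the data were seen, put 22 members in the long class, with a median log2 ratio of 0.16. All 948 measured genes of that length also had a median of 0.16, and the 12798 shorter genes one of 0.06, the same as the 55 shorter members. The part of transcript length in the ratios of the large methyltransferases was not tested.

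Core Polycomb repressive complex 2 genes were 3 of 4 above equality, beside 60.8% of all genes, with a median of 0.17. Ezh2, the main methyltransferase of dividing cells, was at 60.0 CPM in control against 71.6 CPM in Seh1cKO, or 1.19-fold higher (1.11 to 1.29). Ezh1, its counterpart in non-dividing cells, was at 17.4 and 16.7 CPM, for a ratio of 0.959 (0.825 to 1.11). Eed, the subunit that reads the mark, was at 26.4 and 33.1 CPM, a log2 ratio of 0.31, and Suz12 at 45.0 and 47.7 CPM. Of the enzymes of H3 lysine 9, Ehmt2 (G9a) was the more abundant, at 261 and 226 CPM, for a ratio of 0.868 (0.834 to 0.902), and its partner Ehmt1 was at 52.6 and 57.6 CPM, for a ratio of 1.09 (1.01 to 1.19). The pair lay on opposite sides of equality with intervals that did not overlap, while those of Ezh1 and Ezh2 did. How often the counting intervals of other gene pairs stand apart was not counted, so this does not single the pair out.

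The remaining SET-domain genes were close to level. Setd5, at 162 and 162 CPM, and Setd8, which methylates histone H4 and is named Kmt5a in RefSeq, at 92.0 and 93.8 CPM, differed least. Setd2, which trimethylates lysine 36, was at 61.3 and 68.1 CPM, for a ratio of 1.11 (1.03 to 1.20), and Setd3, an actin histidine methyltransferase, at 122 and 112 CPM, for a ratio of 0.920 (0.869 to 0.973). Setd6 was at 15.4 and 16.2 CPM. Setd4 had few reads, at 3.38 and 4.66 CPM, and its 1.38-fold ratio had a wide interval (1.00 to 1.91). The class median of 0.05 turned to -0.03 after rescaling by the median of ratios.

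Lysine demethylases reverse these marks. Among those of the first 3 families, Kdm1a (LSD1), the flavin-dependent enzyme of the CoREST complex, was at 126 CPM in control against 116 CPM in Seh1cKO, a ratio of 0.923 (0.872 to 0.976). Kdm3a, which acts on lysine 9 and is known as a hypoxia-inducible gene, was lowest, at 82.1 and 72.1 CPM, for a ratio of 0.878 (0.818 to 0.942). Kdm2b, which brings a Polycomb complex to CpG islands, was highest, at 43.2 and 53.3 CPM, or 1.23-fold higher (1.13 to 1.35). Its paralog Kdm2a was at 77.3 and 87.8 CPM, Kdm3b at 79.1 and 85.5 CPM and Kdm1b at 17.8 and 19.0 CPM.

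Among the later families, Kdm4a, Kdm4b and Kdm4c, which act on lysines 9 and 36, were at 105 and 103 CPM, at 63.0 and 57.7 CPM and at 31.4 and 31.7 CPM. The lysine 4 demethylases differed among themselves. Kdm5b was at 83.1 and 70.7 CPM, for a ratio of 0.851 (0.793 to 0.913), Kdm5a at 47.6 and 52.8 CPM, for a ratio of 1.11 (1.02 to 1.21), and the X-linked Kdm5c at 101 and 132 CPM, or 1.31-fold higher (1.24 to 1.39). Their 3 intervals did not overlap, but they cover counting error only, and other sets of genes were not compared in this way. Kdm6a (UTX), which removes methyl groups from lysine 27 and is X-linked, was at 17.2 and 25.3 CPM, or 1.47-fold higher (1.28 to 1.69), and its autosomal paralog Kdm6b at 73.0 and 62.8 CPM, for a ratio of 0.859 (0.797 to 0.926). Kdm7a, at 23.6 and 22.9 CPM, and Kdm8, at 5.26 and 4.66 CPM, were near level.

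Kdm6a and Kdm5c, the demethylases furthest above equality, escape X inactivation in the mouse and have Y-linked homologues. Xist was at 0.868 CPM in control against 341 CPM in Seh1cKO, so that sex-linked expression and genotype cannot be told apart for these genes. Uty, the homologue of Kdm6a, was at 10.6 CPM in control with 0 reads in Seh1cKO, and Kdm5d, that of Kdm5c, at 15.5 and 0.0485 CPM. Summed as pairs, Kdm6a with Uty stood at 27.8 CPM in control against 25.3 CPM in Seh1cKO, a ratio of 0.909 (0.806 to 1.02). Kdm5c with Kdm5d stood at 116 and 133 CPM, for a ratio of 1.14 (1.08 to 1.20). Other known escape genes, picked after their values were seen, lay on the same side: Ddx3x was 1.36-fold higher (1.31 to 1.42) and Eif2s3x 1.69-fold higher (1.62 to 1.76). The X-linked Hdac6 and Hdac8 had ratios of 1.06 (0.983 to 1.15) and 0.972 (0.836 to 1.13), and the median log2 ratio over the 463 measured X-linked genes was 0.09.

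**Figure D3:**
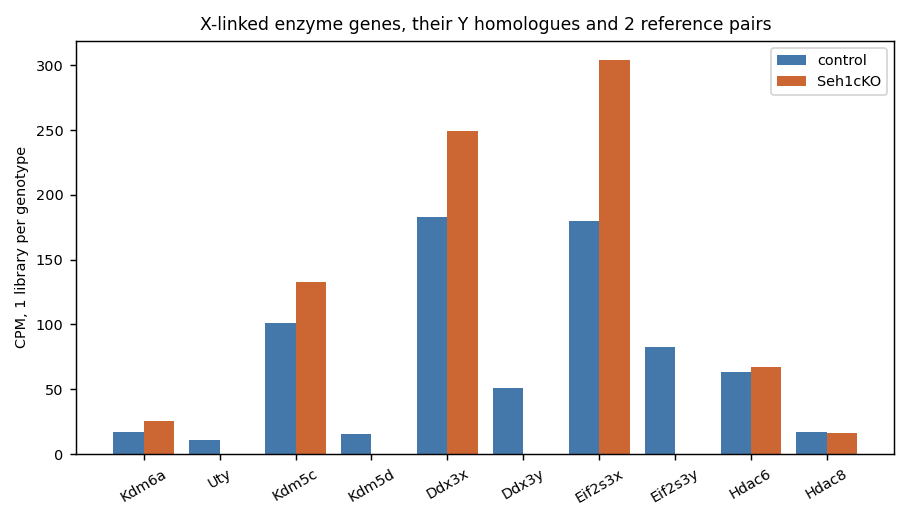
CPM in the control and Seh1cKO libraries (bars from 0, 1 library each) of the 4 X-linked enzyme genes, the Y homologues Uty and Kdm5d, and the reference pairs Ddx3x with Ddx3y and Eif2s3x with Eif2s3y. Kdm6a and Kdm5c are higher in Seh1cKO, where their Y homologues are at or near 0, while Hdac6 and Hdac8 are nearly level.

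The arginine methyltransferases held Prmt1, which was second per length in control, after Sirt2, and first in Seh1cKO. This main source of asymmetric dimethylarginine was at 204 CPM in control against 199 CPM in Seh1cKO, a ratio of 0.976 (0.935 to 1.02), and at 155 and 151 FPKM. Prmt5, the symmetric methyltransferase that mouse oligodendrocytes need to develop, was at 86.5 and 97.0 CPM, or 1.12-fold higher (1.05 to 1.20). Prmt3, which methylates a ribosomal protein, was at 31.5 and 38.5 CPM, Prmt6 at 21.1 and 26.4 CPM and Prmt7 at 51.5 and 62.9 CPM, with log2 ratios of 0.28, 0.31 and 0.28. Prmt8, a membrane-bound enzyme of neurons, had the largest log2 ratio of the set, 0.53, but on 29 and 51 reads, at 1.40 and 2.48 CPM (ratio 1.10 to 2.90). Prmt2 was at 73.2 and 77.4 CPM and Prmt9, the lowest in ratio, at 29.6 and 28.0 CPM. The class median was 0.22. Of the neuron markers, Map2 and Tubb3 were at 279 and 270 CPM and at 91.0 and 79.6 CPM. At least 25% higher in Seh1cKO were 4 of the 6, beside 21.3% of all genes. The part of these markers in the Prmt8 value was not tested.

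Among the enzymes of DNA methylation, Dnmt1 had the highest ratio. Dnmt1, which copies methylation onto new strands after replication (chromosome 9), was at 98.7 CPM in control against 136 CPM in Seh1cKO, or 1.37-fold higher (1.30 to 1.46). The de novo enzyme Dnmt3a was at 108 and 112 CPM, for a ratio of 1.04 (0.977 to 1.10), and Dnmt3b at 2.03 and 2.23 CPM on 42 and 46 reads. The TET dioxygenases, which oxidise methylcytosine, were level: Tet1 at 19.3 and 18.3 CPM, Tet2 at 25.6 and 25.9 CPM and Tet3 at 47.3 and 45.3 CPM, all with intervals that held equality. All 10 cell cycle genes listed were at least 25% higher in the same library, beside 21.3% of all genes. Their median log2 ratio was 0.75. Among them was Pcna, the replication clamp that recruits Dnmt1, at 138 and 184 CPM, for a ratio of 1.33 (1.27 to 1.40). The part of cell division in the Dnmt1 and Ezh2 values was not tested.

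**Figure D4:**
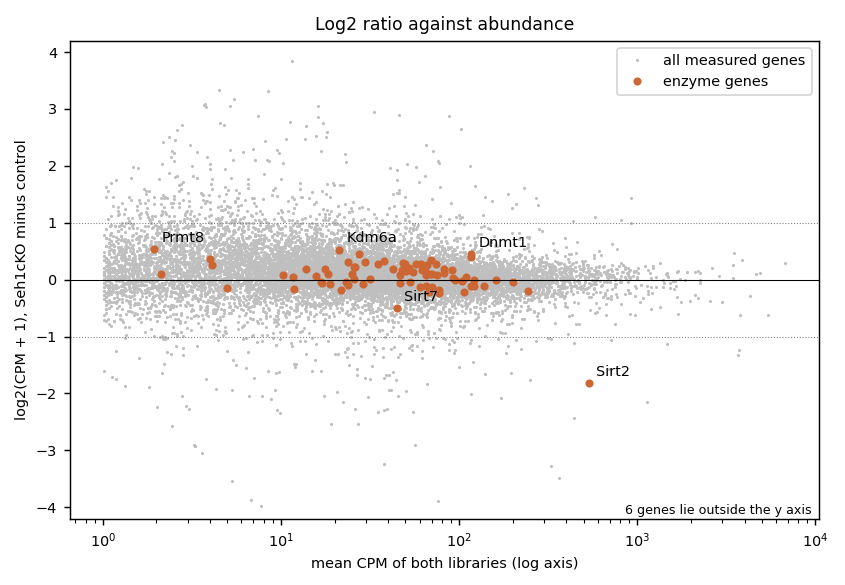
Log2(CPM + 1) in Seh1cKO minus control against mean CPM (log axis), with all 13757 measured genes in grey and the 77 enzyme genes in orange; dotted lines mark 2-fold, and 6 genes lie outside the y axis. The enzyme genes form a narrow band about 0 with Sirt2 far below it.

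Genes that work with these enzymes were read from 10 further lists of other writers, erasers, readers and complex partners. Of 117 measured genes, 19 were at least 25% higher and 5 at least 20% lower, beside 21.3% and 8.83% of all genes. Their median log2 ratio was 0.09, beside 0.07 for all genes, and 69.2% were above 0, beside 60.8% of all genes. Uhrf1, which brings DNMT1 to hemimethylated DNA, was at 39.7 CPM in control against 76.1 CPM in Seh1cKO, or 1.92-fold higher (1.76 to 2.09), the same side as Dnmt1. Rcor2, a CoREST scaffold that ties Kdm1a to HDAC1 and HDAC2, was at 35.0 and 15.6 CPM, or 2.24-fold lower (1.97 to 2.57), and was the 1 related gene past 2-fold. Its paralog Rcor1 was at 4.44 and 7.77 CPM, or 1.75-fold higher (1.35 to 2.29).

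Few other partners were past 1.5-fold on the log2(CPM + 1) scale. Just inside that limit was Tdg, a glycosylase of active DNA demethylation, at 49.2 and 32.6 CPM, or 1.51-fold lower (1.37 to 1.67) in CPM. Phf19, a Polycomb subunit that reads lysine 36 methylation, was at 11.7 and 21.5 CPM, or 1.84-fold higher (1.57 to 2.16). The acetyltransferase scaffolds Jade2 and Jade1 were 1.82-fold higher (1.55 to 2.13) and 1.69-fold higher (1.41 to 2.02), at 12.1 and 22.0 CPM and at 9.36 and 15.8 CPM. Btg2, an antiproliferative gene that binds PRMT1, was at 25.2 and 44.1 CPM, or 1.75-fold higher (1.57 to 1.95), and Smyd5 at 15.3 and 26.2 CPM, or 1.71-fold higher (1.49 to 1.98). Hr, a corepressor induced by thyroid hormone in rat brain, was at 112 and 71.0 CPM, or 1.58-fold lower (1.48 to 1.69). Medians of the lists ran from -0.12 for the other demethylases, where 5 of 6 were below 0, to 0.26 for the other acetyltransferases. Of all 13757 measured genes, 5386 were below 0. The medians of the MLL and SET1 partners, PRC1, the deacetylase corepressors and the acetyltransferase partners were between 0.03 and 0.07. They turned negative with the median of ratios.

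**Figure D5:**
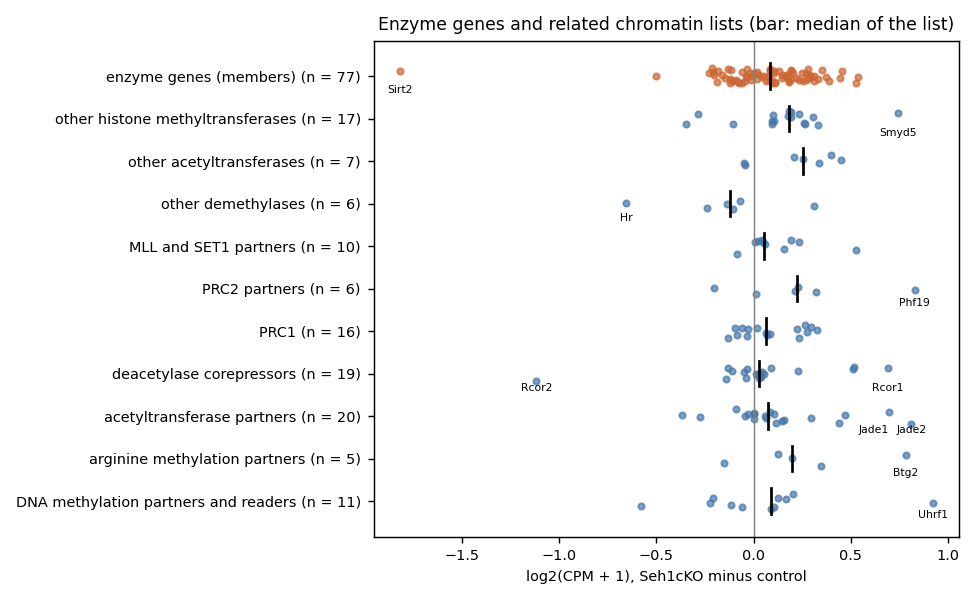
Log2(CPM + 1) in Seh1cKO minus control for the 77 measured enzyme genes (orange) and for the genes of 10 related lists (blue), with a black bar at the median of each list and names at differences of at least 1.5-fold. Sirt2 and Rcor2 lie furthest to the left and Uhrf1 furthest to the right.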

How the data were processed

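The authors deposited, for each library, a table of genes that holds the expected count, the FPKM and a transcript length, per the file headers. HTSeq, StringTie and mm10 appear in the submitters' processing notes, which name no aligner and no strand setting among the items used here. The authors' deposited comparison table adds log2 fold changes with p-value and false discovery rate columns; only the log2 value of Sirt2 is taken from it, as its p-value columns come from 1 library per group. In the deposited tables, 29.3% of control and 29.5% of Seh1cKO values were fractional (tolerance 0.001), as were those of 20 of the 77 measured members in at least 1 library, so values of overlapping or similar genes are uncertain.

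Here counts were rounded and scaled to CPM, leaving out 1 row per library that names no gene (8.20e-05% of control reads). The log2 ratio is log2(CPM + 1) in Seh1cKO minus control, which understates differences of low genes. Genes counted as measured had a mean of at least 1 CPM; the limits of 2-fold, 25% higher and 20% lower are on that scale, and ratios of single genes are of CPM without the pseudocount, with Clopper-Pearson intervals. A count of 0 allows 3 counts, or 0.145 CPM in control and 0.146 CPM in Seh1cKO. Reads carry no molecular identifiers, so intervals cover counting error only. No test across genotypes was possible. Coordinates and promoters come from RefSeq on GRCm38.p6, the assembly behind mm10; 18611 identifiers matched. The members and lists were chosen with earlier results of these data known. Every member could be named; of related genes, those at least 1.5-fold different at a mean of 5 CPM or more. Python 3.11.15, pandas 2.3.3 and SciPy 1.17.1 were used, and the interval was tested on simulated data. One further maturation marker is not reported here.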

Additional observations from a re-analysis of the deposited data

How the results depend on the processing

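Sirt2 as the 1 member past 2-fold, with 0 members at least 2-fold higher, held under all 8 alternatives (pseudocounts of 0.1 and 5 CPM, median of ratios, upper quartile, deposited FPKM, no floor, a floor of 5 CPM, and no genes of chromosomes X and Y), as did the 2 members at least 20% lower. The 8 at least 25% higher became 5 with a pseudocount of 5 CPM, 4 with the median of ratios (without Kdm5c, Setd4, Kmt2d and Hdac4) and 5 on the FPKM scale. With the median of ratios, the median of the members was 0.0121, of acetyltransferases 0.0915, of DNA methyltransferases 0.0430, of TET genes -0.14, of MLL and SET1 partners -0.0222, of deacetylase corepressors -0.0511 and of acetyltransferase partners -0.00113; 7 of 77 members changed sign. With the upper quartile the TET median was -0.10 and that of MLL and SET1 partners 0.00890, and 5 members changed sign. The DNA methyltransferase median was 0.0494 with a pseudocount of 5 CPM and 0.0476 on the FPKM scale. The median of ratios and the upper quartile apply 1 factor per library to every gene, and the median of all genes moved to -0.005 and 0.025. The members' median stayed 0.017 and 0.016 above it, beside 0.016 in the main setting. Dnmt3b, at a mean of 2.13 CPM, had a log2 ratio of 0.0955 in the main setting. It was 0.0419 with a pseudocount of 5 CPM and 0.0476 on the FPKM scale. Over all genes, 394 were at least 2-fold higher and 178 lower, against 637 and 241 with a pseudocount of 0.1 CPM, 141 and 116 with 5 CPM and 204 and 148 on the FPKM scale. With 1 library per group, the spread between cultures is unknown. No paired analysis was possible because each group has 1 library.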

Other observations

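The deposited transcript length differed between the libraries for 31 of the 77 measured enzyme genes, each with more than 1 transcript listed, and for 0 of the genes with 1 transcript listed. The change was at least 1% for 7 members. Hdac7 was at 3921 bases in control and 4028 bases in Seh1cKO, a change of 2.73%, Kat2b at 4201 and 4300 bases (2.35%), Hdac9 at 5620 and 5716 bases (1.71%), Dnmt3a at 8993 and 9144 bases (1.68%) and Sirt2 at 1769 and 1797 bases (1.56%). The smallest of these changes were in Ehmt1, at 4966 and 5028 bases, and Kat7, at 5852 and 5922 bases. With 1 library per genotype the direction of these changes has no replicate check.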
